A study of Mus musculus with 12 samples.

Results

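The sestrins are 3 genes of the mouse, Sesn1, Sesn2 and Sesn3, out of 43131 genes counted in bone marrow-derived macrophages (BMDMs). They were chosen by name from the interaction of genotype and lipopolysaccharide (LPS) in these counts, which was large for Sesn1, and their group levels were known at the time, so all values of the sestrins are given as a description without a test. The BMDMs came from C57BL/6 mice that were either tlr4f/f, with loxP sites in Tlr4, or tlr4f/f-lysM-cre, in which Cre recombinase is expressed from the Lyz2 locus in cells of the myeloid lineage. They were grown in 50 ng/mL M-CSF for 7 days and then left untreated or given 1 µg/mL LPS, the bacterial ligand of TLR4, for 6 h. There were 12 libraries, 3 in each of 4 groups that are headed LPS- tlr4f/f, LPS- tlr4f/f-lysM-cre, LPS+ tlr4f/f or, last of all, LPS+ tlr4f/f-lysM-cre, and the floxed allele and the M-CSF are shared by every group. The study calls libraries of a group independent replicates and does not say whether they came from separate mice. The p-values therefore set group differences against the spread between these libraries, which need not be the spread between mice. The libraries held between 33577087 and 56445268 counts over genes, with a median of 45330681.

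Sestrins are cytosolic proteins induced by stress that hold back mTORC1, the kinase complex that couples nutrients to growth. Sestrin 2 binds leucine and, when leucine is scarce, binds and inhibits GATOR2, which keeps the Rag GTPases from recruiting mTORC1 to the lysosome. Sestrins also act with AMPK and with the regeneration of peroxiredoxins. Sesn1 is known as a target of p53 and of FoxO factors, Sesn2 as a target of p53, ATF4 and NRF2, and Sesn3 as a target of FoxO factors. In macrophages, mTORC1 and oxidative stress are both engaged when TLR4 is triggered.

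The column headings bear on every direction below. Tlr4, the targeted gene, stood at a mean of 115 and 110 CPM (counts scaled to library size with TMM factors) in tlr4f/f and tlr4f/f-lysM-cre columns headed LPS-, and at 27.7 and 25.6 CPM in those headed LPS+. The counted row spans the whole transcript, so these values are no measure of the deleted part alone. Lyz2, the gene that carries the Cre, had between 221787 and 1244818 counts in the 6 libraries headed LPS- and between 494 and 3272 in the 6 headed LPS+. Il1b, a cytokine gene that LPS induces, had at least 52432 counts in all 6 tlr4f/f-lysM-cre columns and at most 405 in all 6 tlr4f/f columns. Tlr4 and Lyz2 thus divide the libraries by the LPS in the heading and Il1b by the genotype in the heading, which goes against a pair of headings, LPS+ tlr4f/f as well as LPS- tlr4f/f-lysM-cre. With these headings exchanged, Tlr4 and Lyz2 are low in all tlr4f/f-lysM-cre libraries and Il1b is high in all libraries with LPS. The headings are kept as names, since they are what the labels give, and each sestrin is also given in an exchanged reading, in which the columns headed LPS- tlr4f/f-lysM-cre are LPS+ tlr4f/f and the columns headed LPS+ tlr4f/f are LPS- tlr4f/f-lysM-cre. The interaction is the same number in both readings.

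The 9 macrophage markers examined, Adgre1, Csf1r and Cd68 among them, were all at 1 CPM or more in every group. Their summed level was between 6803 and 8175 CPM under LPS- tlr4f/f, 12331 and 14691 under LPS- tlr4f/f-lysM-cre, 4844 and 5272 under LPS+ tlr4f/f, and 8521 and 8853 under LPS+ tlr4f/f-lysM-cre. The replicates of the 2 groups headed LPS- were the more variable, with a biological coefficient of variation of 37.2% for tlr4f/f and 34.9% for tlr4f/f-lysM-cre, against 8.55% and 8.75% in the groups headed LPS+.

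The starts of the 3 genes are shown because the sestrins moved apart from one another across the groups. Each window is the 250 bases before a RefSeq start site, read 5′ to 3′ on the strand of the gene from RefSeq on GRCm38.p6, the build that mm10 denotes, and 3 of 3 sestrins were found there. Sesn1 (ENSMUSG00000038332.13, chr10:41810574-41908436, plus strand) has 2 start sites, with windows at chr10:41810324-41810573 for the upstream one and chr10:41887189-41887438 for the downstream one. The downstream window lies in the first intron of the transcript that begins upstream. The Sesn2 window (ENSMUSG00000028893.8, gene at chr4:132492804-132510456, minus strand) is chr4:132510457-132510706, and the Sesn3 window (ENSMUSG00000032009.8, gene at chr9:14276301-14326134, plus strand) is chr9:14276051-14276300. By GENCODE M21 the upstream transcript of Sesn1 begins at position 41809935, so that all 250 bases of the upstream window fall in its first exon, and that window is not printed. The first exon of Sesn2 likewise takes in the last 45 bases of its window. Capitals mark the 2 matches described after the sequences.
Sesn1, downstream start: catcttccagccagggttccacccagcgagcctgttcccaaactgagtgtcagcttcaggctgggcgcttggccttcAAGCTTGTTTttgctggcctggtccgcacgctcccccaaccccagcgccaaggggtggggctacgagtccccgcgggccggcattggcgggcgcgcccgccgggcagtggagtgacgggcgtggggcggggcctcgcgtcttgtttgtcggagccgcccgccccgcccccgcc
Sesn2: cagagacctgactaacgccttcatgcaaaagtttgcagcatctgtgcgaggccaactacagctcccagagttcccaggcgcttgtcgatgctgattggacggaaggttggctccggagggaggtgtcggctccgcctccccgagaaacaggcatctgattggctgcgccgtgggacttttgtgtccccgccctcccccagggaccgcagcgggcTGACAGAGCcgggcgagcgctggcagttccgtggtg
Sesn3: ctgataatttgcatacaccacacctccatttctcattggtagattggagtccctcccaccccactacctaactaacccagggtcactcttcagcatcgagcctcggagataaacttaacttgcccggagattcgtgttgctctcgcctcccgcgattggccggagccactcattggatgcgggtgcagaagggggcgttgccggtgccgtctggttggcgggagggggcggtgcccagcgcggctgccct

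A half-site of p53 was matched in the downstream Sesn1 window, on both strands, from 173 to 164 bases before the start. The Sesn2 window held the NRF2 antioxidant response core TGACNNNGC, on the strand of the gene from 36 to 28 bases before the RefSeq start, in the stretch that GENCODE puts in the first exon. The search covered both strands and also included the FoxO element GTAAACA, the ATF4 element TGATGNAA and the NF-kB site, none of which was found in the 4 windows. Among 32851 promoter windows of the same length, 7.13% held the p53 half-site, 10.2% the NRF2 core, 3.17% the FoxO element, 3.45% the ATF4 element and 7.25% the NF-kB site. A match is a run of letters and no evidence of binding, and the absence of a match concerns only these windows. The windows had a GC content of 70.0% and 71.2% at the upstream and downstream Sesn1 starts, 63.2% at Sesn2 and 59.6% at Sesn3.

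Sesn1, which encodes sestrin 1, was low in the columns headed LPS- tlr4f/f-lysM-cre and high in all others. Its counts were 3639, 3911 and 3820 under LPS- tlr4f/f, and 95, 83 and 128 under LPS- tlr4f/f-lysM-cre. They were 3383, 3109 and 5009 under LPS+ tlr4f/f, and 1549, 1249 and 1641 under LPS+ tlr4f/f-lysM-cre. The corresponding levels were 65.5 ± 5.14, 3.04 ± 0.816, 78.9 ± 7.68 and 35.6 ± 1.03 CPM (mean ± SD, n = 3 each). The groups formed 3 levels without overlap, with LPS- tlr4f/f-lysM-cre lowest, LPS+ tlr4f/f-lysM-cre in the middle, and the tlr4f/f groups at the top, where 70.9 to 86.2 CPM with LPS in the heading overlapped 62.2 to 71.4 CPM without.

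As headed, Sesn1 was 21.6-fold lower in LPS- tlr4f/f-lysM-cre than in LPS- tlr4f/f (log2 fold change -4.43, SE 0.246). With LPS in both headings the same genotype difference was 2.23-fold (log2 fold change -1.16, SE 0.0710). LPS+ against LPS- within tlr4f/f-lysM-cre gave an 11.7-fold higher level (log2 fold change 3.55, SE 0.220), and within tlr4f/f a log2 fold change of 0.29 (SE 0.105). The interaction, the difference of these LPS contrasts fitted over the 12 libraries, was 3.28 on the log2 scale (SE 0.224), rank 241 by size among 15775 genes.

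In the exchanged reading the same columns say that Sesn1 was 21.6-fold lower with LPS than without in tlr4f/f BMDMs and 2.23-fold lower with LPS in tlr4f/f-lysM-cre BMDMs. The genotypes without LPS then differed by a log2 fold change of 0.29, with overlapping libraries, and with LPS the level was 11.7-fold higher in tlr4f/f-lysM-cre. In both readings 1 group of libraries carries the low level, and what differs is whether it is named LPS- tlr4f/f-lysM-cre or LPS+ tlr4f/f. In bulk RNA, fewer cells that express a gene and less of its RNA per cell cannot be told apart.

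**Figure D1:**
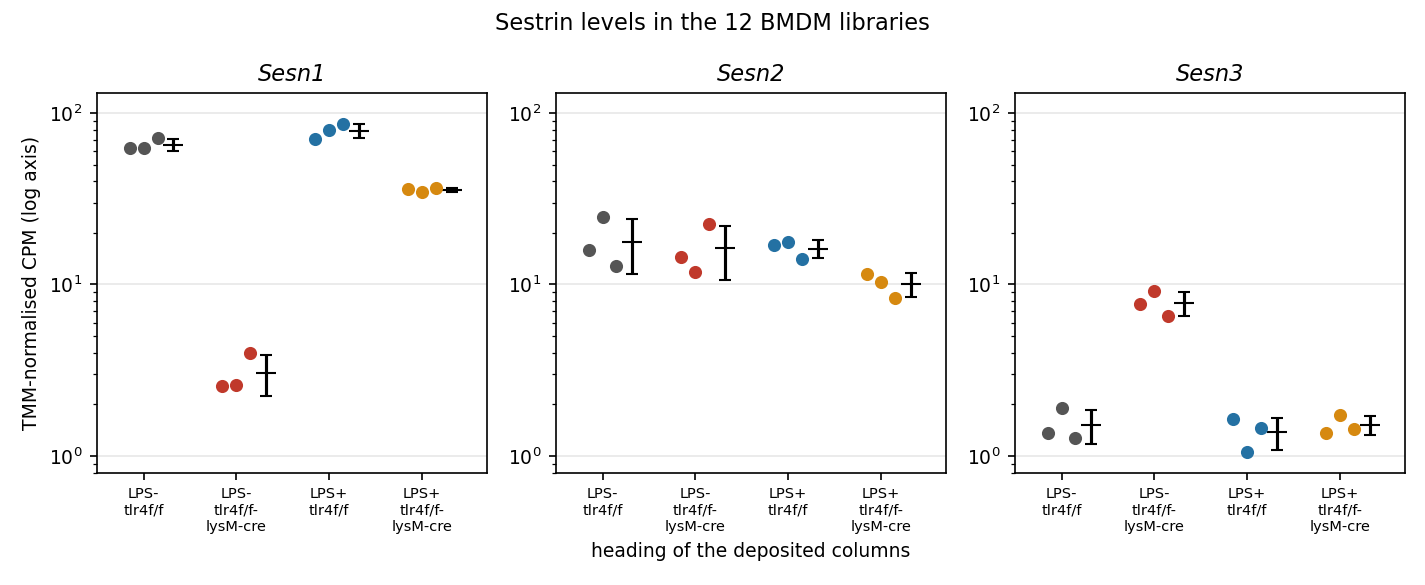
Levels of Sesn1, Sesn2 and Sesn3 in each of 12 libraries (points) with the group mean and SD (n = 3), as TMM-normalised CPM on a log axis, by the heading of the deposited columns. Sesn1 is lowest and Sesn3 highest in the columns headed LPS- tlr4f/f-lysM-cre, at 3.04 and 7.80 CPM, while Sesn2 lies between 8.31 and 24.8 CPM in all libraries.

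Sesn2 encodes the leucine-binding sestrin. Its counts were 929, 1544 and 682 under LPS- tlr4f/f, 539, 376 and 726 under LPS- tlr4f/f-lysM-cre, 811, 688 and 813 under LPS+ tlr4f/f, and 500, 377 and 374 under LPS+ tlr4f/f-lysM-cre. As levels these were 17.8 ± 6.24, 16.3 ± 5.64, 16.2 ± 1.94 and 10.1 ± 1.65 CPM (mean ± SD, n = 3 each). The first 3 groups overlapped one another, and the LPS+ tlr4f/f-lysM-cre libraries, at 8.31 to 11.6 CPM, lay below all the others, of which the lowest had 11.8 CPM.

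The Sesn2 log2 fold change was -0.69 (SE 0.128) for the genotype with LPS in the heading and -0.69 (SE 0.280) for LPS within tlr4f/f-lysM-cre. The other contrasts were small against their errors, at -0.13 (SE 0.350) for the genotype without LPS and -0.11 (SE 0.257) for LPS within tlr4f/f. The interaction was -0.55 on the log2 scale (SE 0.395), and it was -0.87 without the second LPS- tlr4f/f library, -0.36 without the third, and -0.25 without the third LPS- tlr4f/f-lysM-cre library. Without this last library the LPS difference within tlr4f/f-lysM-cre was -0.38. In the exchanged reading, -0.69 is both the LPS difference in tlr4f/f-lysM-cre and the genotype difference with LPS. The smallest contrasts changed sign with single libraries. Without the second LPS- tlr4f/f library, which had the highest level, LPS within tlr4f/f gave 0.20 and the genotype without LPS 0.18, and without the second LPS- tlr4f/f-lysM-cre library the latter gave 0.06. Other libraries moved them the other way. Without the third LPS- tlr4f/f library LPS within tlr4f/f gave -0.31 and the genotype without LPS -0.34. The latter gave -0.43 without the third LPS- tlr4f/f-lysM-cre library.

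Sesn3 was highest in the group where Sesn1 was lowest. It had 80, 119 and 68 counts under LPS- tlr4f/f and 288, 291 and 211 under LPS- tlr4f/f-lysM-cre. It had 78, 41 and 84 counts under LPS+ tlr4f/f and 59, 63 and 65 under LPS+ tlr4f/f-lysM-cre. The levels were 1.52 ± 0.344, 7.80 ± 1.27, 1.38 ± 0.298 and 1.52 ± 0.197 CPM (mean ± SD, n = 3 each). The columns headed LPS- tlr4f/f-lysM-cre stood above all others, and the other 3 groups overlapped one another.

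As headed, Sesn3 was 5.09-fold higher in LPS- tlr4f/f-lysM-cre than in LPS- tlr4f/f (log2 fold change 2.35, SE 0.294) and 5.11-fold lower in LPS+ than in LPS- tlr4f/f-lysM-cre (log2 fold change -2.35, SE 0.214). LPS within tlr4f/f and the genotype with LPS gave -0.11 (SE 0.309) and 0.12 (SE 0.249). The interaction was -2.23 on the log2 scale (SE 0.357). In the exchanged reading, Sesn3 was 5.09-fold higher with LPS in tlr4f/f BMDMs, with a log2 fold change of 0.12 for LPS in tlr4f/f-lysM-cre BMDMs.

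As background to the overlaps, differentially expressed genes (DEGs, over 2-fold at an adjusted p below 0.01 by the quasi-likelihood test of edgeR, adjusted by Benjamini-Hochberg) made up 17.1% of genes tested for the genotype without LPS, 21.7% for the genotype with LPS, 6.08% for LPS within tlr4f/f-lysM-cre and 1.04% for the interaction. LPS within tlr4f/f gave 0% by this edgeR test, with 3624 of 14701 genes at an unadjusted p below 0.05 and 464 DEGs by DESeq2. Most of these shares moved when 1 library was left out, which leaves 2 in its group. The 2497 DEGs for the genotype without LPS became 1038 to 1682, and the 164 for the interaction 10 to 306. The 865 for LPS within tlr4f/f-lysM-cre became 4 to 15 without an LPS+ library and 935 to 1178 without an LPS- one. The 3161 for the genotype with LPS moved little, to 3017 to 3152. Groups without any overlap of libraries were more common, at 54.2% of genes tested for the genotype without LPS and 67.3% for the genotype with LPS. They made up 48% for LPS within tlr4f/f-lysM-cre and 35.5% for LPS within tlr4f/f. Among the sestrins, 2 of 3 did not overlap for the genotype without LPS, 2 of 3 for the genotype with LPS, and 3 of 3 for LPS within tlr4f/f-lysM-cre, while all 3 overlapped in LPS within tlr4f/f. These contrasts make up the interaction that chose the genes, and nothing is read from the counts.

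The averages over the other factor are built from the same group levels and are likewise given without a test, as the scale on which the genes around the sestrins are described. For the average genotype difference, 6 libraries headed tlr4f/f-lysM-cre against 6 headed tlr4f/f, Sesn1 was 6.91-fold lower (log2 fold change -2.79, SE 0.116) and Sesn3 2.37-fold higher (log2 fold change 1.25, SE 0.179). Sesn2 gave -0.41 (SE 0.198), and -0.26 without the second LPS- tlr4f/f library.

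For the average LPS difference, Sesn1 was 3.75-fold higher under the LPS+ headings (log2 fold change 1.91, SE 0.113), Sesn3 was lower (log2 fold change -1.25, SE 0.179), and Sesn2 gave -0.41 (SE 0.198), and -0.25 without either the second LPS- tlr4f/f or the third LPS- tlr4f/f-lysM-cre library. In the exchanged reading each value changes its name, so that the average LPS difference was -2.79 for Sesn1 and 1.25 for Sesn3, and the average genotype difference was 1.91 and -1.25. An average hides the spread of its parts. Both averages of Sesn3, and the average LPS difference of Sesn1, come mostly from the 3 LPS- tlr4f/f-lysM-cre libraries. The LPS contrast within tlr4f/f was 0.29 for Sesn1 and -0.11 for Sesn3, and the genotype with LPS was 0.12 for Sesn3, all with overlapping libraries.

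**Figure D2:**
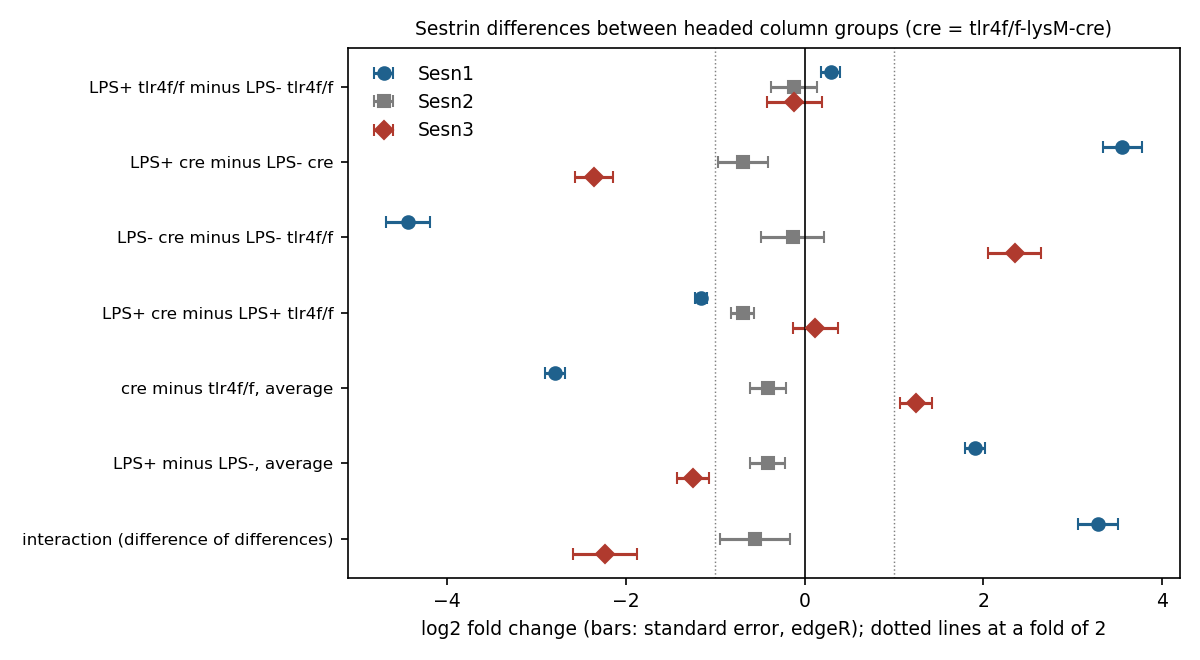
Log2 fold changes of Sesn1, Sesn2 and Sesn3 with their standard errors (edgeR) in 7 contrasts of the headed groups, with dotted lines at a fold change of 2. Sesn1 and Sesn3 lie on opposite sides of 0 in all 7 (-4.43 and 2.35 for the genotype without LPS). In the 2 contrasts without the columns headed LPS- tlr4f/f-lysM-cre, Sesn3 is within its standard error of 0. Sesn2 stays within 0.69 of 0 in all 7.

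A pair of comparisons crosses both factors. The level of Sesn1 was 1.84-fold higher in LPS- tlr4f/f than in LPS+ tlr4f/f-lysM-cre, without overlap, and 25.9-fold higher in LPS+ tlr4f/f than in LPS- tlr4f/f-lysM-cre, by the ratio of mean CPM. For Sesn3 the first ratio was 0.999 and in the second comparison the level was 5.67-fold lower in LPS+ tlr4f/f. For Sesn2 the first was a 1.76-fold difference without overlap, higher in LPS- tlr4f/f, and the second ratio was 0.995.

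Levels between the sestrins were compared per kilobase, with the deposited transcript lengths of 2612, 2658 and 2158 bases. Sesn1 held 77.3 ± 6.73% of the summed sestrin level under LPS- tlr4f/f, 81.7 ± 2.85% under LPS+ tlr4f/f and 75.2 ± 2.96% under LPS+ tlr4f/f-lysM-cre (mean ± SD, n = 3 each). Under LPS- tlr4f/f-lysM-cre its share was 10.6 ± 0.982%, while that of Sesn2 was 55.1 ± 9.58% and that of Sesn3 34.3 ± 10.3%. Sesn2 held 20.5 ± 6.33%, 16.6 ± 2.71% and 20.9 ± 2.94% in the other groups, in the same order, and Sesn3 2.16 ± 0.397%, 1.74 ± 0.458% and 3.88 ± 0.566%. The most abundant sestrin transcript was therefore Sesn1 in 3 groups and Sesn2 in the group headed LPS- tlr4f/f-lysM-cre. In absolute terms per kilobase, Sesn2 had 6.12 ± 2.12 CPM there and Sesn3 3.61 ± 0.588, against 1.17 ± 0.312 for Sesn1. The summed level of the 3 genes was 32.5 ± 1.91 CPM per kilobase under LPS- tlr4f/f, 10.9 ± 1.89 under LPS- tlr4f/f-lysM-cre, 36.9 ± 2.39 under LPS+ tlr4f/f and 18.1 ± 0.503 under LPS+ tlr4f/f-lysM-cre.

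Sesn1 was counted on 2 transcripts, which share 9 of 10 exons and differ in the first. NM_001013370.2, from the downstream start, had the higher total and was taken for all values above, and NM_001162908.1 begins at the upstream start. The count of the upstream row as a percentage of the downstream row was 95.2, 97.0 and 94.2 under LPS- tlr4f/f, 109, 107 and 105 under LPS- tlr4f/f-lysM-cre, 98.8, 97.2 and 98.5 under LPS+ tlr4f/f, and 98.1, 100.1 and 100.5 under LPS+ tlr4f/f-lysM-cre. Counts were not split by exon, so how much of each row lies in sequence that the transcripts share was not measured. The downstream row exceeded the upstream row by 174, 118 and 223 counts in the LPS- tlr4f/f libraries and fell short of it by 9, 6 and 7 counts in the LPS- tlr4f/f-lysM-cre libraries. The excess of the downstream row was 42, 86 and 75 counts under LPS+ tlr4f/f and 30, -1 and -8 under LPS+ tlr4f/f-lysM-cre. The order of the groups for Sesn1 is thus the same on either row.

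**Figure D3:**
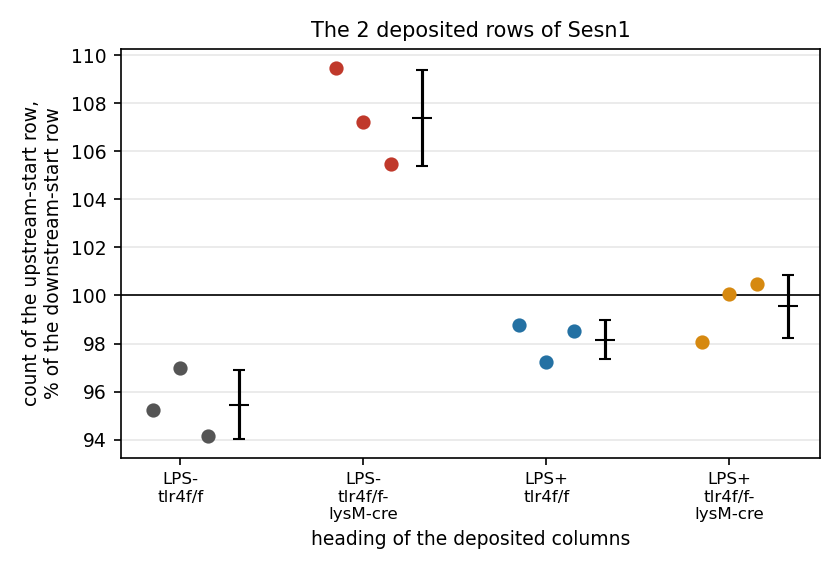
Count of the Sesn1 transcript with the upstream start as a percentage of the count of the transcript with the downstream start, for each of 12 libraries by column heading, with a line at 100%. The values run from 94.2 to 97.0% for LPS- tlr4f/f and lie above 100% for LPS- tlr4f/f-lysM-cre.

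The genes with patterns most like each sestrin were ranked by Pearson r of log2 CPM over the 12 libraries, as a description, since all points share their libraries and group structure. For Sesn1 they were Gm14403 (r = 0.993), Adal, an adenosine deaminase-like gene (0.992), Polr3k, a subunit of RNA polymerase III (0.991), Zfp955a, a zinc finger gene (0.989), and Eif2ak3, which encodes the stress kinase PERK (0.988). As many as 803 genes had an r of at least 0.9 with Sesn1. Without the 3 LPS- tlr4f/f-lysM-cre libraries, r with these 5 genes was between 0.840 and 0.974. Eif2ak3 stood at 28.8, 8.60, 29.0 and 19.8 CPM in the order of groups above, the same order of groups as Sesn1 over a smaller range.

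For Sesn3 the closest genes were Akap13, a kinase anchoring protein (r = 0.984), Tmem63b (0.968), Chd2, a chromatin remodeller (0.968), Gm9869 (0.965) and Cyth1, an Arf exchange factor (0.964), and 202 genes reached 0.9. Without the same 3 libraries, r was between 0.0945 and 0.737, with the lowest for Cyth1 and the highest for Chd2, over libraries in which Sesn3 had 41 to 119 counts. Akap13 stood at 132, 453, 118 and 144 CPM. Gm9869 was near the floor outside the columns headed LPS- tlr4f/f-lysM-cre, where it had 30 to 58 counts. It had 1 to 4 counts under LPS+ tlr4f/f-lysM-cre and at most 1 in each tlr4f/f library. For Sesn2 only 1 gene reached 0.9, Ppp1r3b, a glycogen-targeting subunit of protein phosphatase 1 (r = 0.904, and 0.899 without the 3 libraries), followed by Bod1l (0.892), Neo1 (0.858), Etv1 (0.854) and LOC108167857 (0.842). Ppp1r3b stood at 13.3, 11.2, 13.5 and 6.85 CPM, lowest in the group where Sesn2 was lowest.

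The genes through which sestrins act are given for the average genotype difference, tlr4f/f-lysM-cre against tlr4f/f as headed, which the exchanged reading calls the average LPS difference. In this contrast 24.6% of 15775 genes were DEGs, 11.8% higher and 12.8% lower. Against that share, 1 of 13 genes of GATOR and its lysosomal tether KICSTOR was a DEG. It was Gatsl2, which encodes the GATOR2-binding protein CASTOR2, with 26.2, 4.43, 24.8 and 8.69 CPM in the order of groups above (log2 fold change -2.04, edgeR adjusted p = 1.07e-05). It was lower in both tlr4f/f-lysM-cre groups than in either tlr4f/f group, as Sesn1 was. The gene of the arginine sensor CASTOR1, Gatsl3, gave -0.90 (edgeR adjusted p = 0.0823). The median over the list was -0.23, beside -0.06 over all genes.

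Of 23 genes of the Rag GTPases, Ragulator, mTORC1 and TSC, 4 were DEGs (17.4%, beside 24.6% of all genes) and all were lower (12.8% of all genes). They were the Rag GTPases Rragb (log2 fold change -3.75, edgeR adjusted p = 2.96e-05) and Rragd (-2.86, edgeR adjusted p = 0.00113), Rhebl1 (-1.26, edgeR adjusted p = 0.00114), and Deptor, an inhibitor within mTORC1 (-2.65, edgeR adjusted p = 1.29e-07). Rragb was at a low level, 1.15 CPM under LPS- tlr4f/f and 0.0283 under LPS- tlr4f/f-lysM-cre. Deptor stood at 16.2, 2.16, 28.2 and 5.32 CPM, the order of the groups seen for Sesn1. Tsc1, whose product restrains mTORC1 with that of Tsc2, gave -0.54 (edgeR adjusted p = 0.00114), below a fold of 2, and Tsc2 gave -0.08 (edgeR adjusted p = 0.258). The list's median was -0.24.

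Among 12 genes of AMPK and of autophagy partners of sestrins, 2 rose and 1 fell, a share of 25% beside the 24.6% of all genes. The autophagy receptor Sqstm1 (log2 fold change 2.06, edgeR adjusted p = 1.32e-05) and Keap1, the adaptor that marks NRF2 for degradation (1.01, edgeR adjusted p = 4.97e-05), were higher, but Keap1 was at the fold limit and lost the call in 5 of 12 fits that left out 1 library. Prkag2, a regulatory subunit of AMPK, was lower, with 18.8, 1.36, 13.3 and 3.61 CPM (-2.83, edgeR adjusted p = 4.42e-06). In the peroxiredoxin cycle 2 of 12 genes were DEGs (16.7%, below the share of all genes), Prdx5 (2.56, edgeR adjusted p = 5.32e-08) and the thioredoxin reductase Txnrd1 (314, 782, 401 and 1285 CPM, edgeR adjusted p = 0.000352), both higher, and the list's median was 0.46. The sulfiredoxin gene Srxn1 gave 1.08 (edgeR adjusted p = 0.0318) and Txnip, a thioredoxin inhibitor, -0.95 (edgeR adjusted p = 0.00112), neither a DEG.

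The known regulators of sestrin transcription are next, and their genes did not move as 1 group. Of 7 regulators tested, Hif1a (log2 fold change 1.83, edgeR adjusted p = 3.6e-06) and Nfe2l2, which encodes NRF2 (1.28, edgeR adjusted p = 7.63e-07), rose, while Foxo1 (-1.53, edgeR adjusted p = 1.45e-05) and Foxo4 (-1.59, edgeR adjusted p = 8.5e-06) fell, 4 of 7 beside 24.6% of all genes. Foxo3 gave -0.96, Trp53, which encodes p53, -0.55, and Atf4 0.47, with edgeR adjusted p of 6.31e-05, 0.000785 and 0.00117, below the fold of 2 that a DEG needs. Foxo1 stood at 14.7, 3.71, 15.4 and 7.32 CPM, again the order of the groups seen for Sesn1. Foxo4, at 32.4, 8.99, 20.7 and 8.18 CPM, did not have that order.

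The other targets of these factors showed their own patterns. Beside 11.8% of all genes that were higher and 12.8% that were lower DEGs, of 20 p53 targets 2 were DEGs, both higher, namely the cell cycle inhibitor Cdkn1a (log2 fold change 2.58, edgeR adjusted p = 0.000158) and the death receptor Fas (4.62, edgeR adjusted p = 4.23e-08), with a list median of 0.41. Mdm2, which targets p53 for degradation, gave 0.91 (edgeR adjusted p = 0.000113), and Ccng1 gave 0.50 (edgeR adjusted p = 0.151). Of 18 ATF4 targets 6 were DEGs and all were higher, with the cystine transporter Slc7a11 (4.96, edgeR adjusted p = 2.05e-06) and Nupr1 (2.84, edgeR adjusted p = 1.56e-07) at the top and a median of 1.03, whereas Asns and Chac1 gave 0.58 and 0.68 (edgeR adjusted p = 0.0545 and 0.31). Of 12 NRF2 targets 4 were DEGs, all higher, among them Hmox1 (1.93, edgeR adjusted p = 0.000125) and Gsr (2.00, edgeR adjusted p = 0.00055), with a median of 0.88. Nqo1 and Gclm gave 0.23 and 1.02 (edgeR adjusted p = 0.736 and 0.0589). Slc7a11, Txnrd1, Srxn1 and Txnip are on 2 lists each. Sesn2, the sestrin known as a target of ATF4 and NRF2, gave -0.41 in this contrast.

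Of 15 FoxO targets, 4 were higher and 1 lower (11.8% and 12.8% of all genes). Tnfsf10, the death ligand TRAIL, gave 5.75 (edgeR adjusted p = 8.65e-08) and Sod2, the mitochondrial superoxide dismutase, 4.59 (edgeR adjusted p = 1.9e-09). The muscle ubiquitin ligase Fbxo32 gave -1.85 (edgeR adjusted p = 0.000833), and Ccng2 0.72 (edgeR adjusted p = 0.00406), not a DEG. The median over the list was 0.08.

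**Figure D4:**
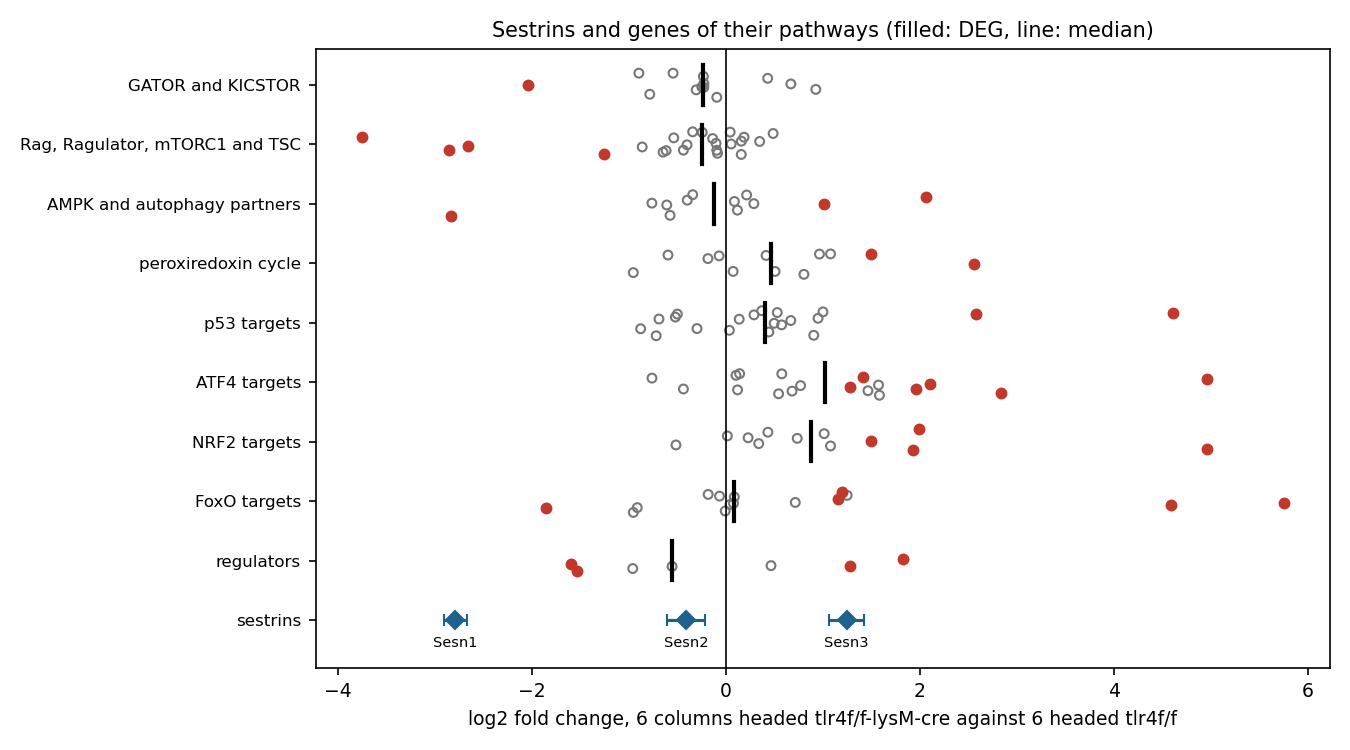
Log2 fold changes of the 3 sestrins and of the genes of 9 lists, for the average of 6 columns headed tlr4f/f-lysM-cre against 6 headed tlr4f/f, with filled points for DEGs (edgeR), a line at each list's median, and diamonds with standard errors for the sestrins. Sesn1 lies at -2.79 and Sesn3 at 1.25, and the medians of the lists run from -0.55 for the regulators to 1.03 for the ATF4 targets.

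In the average LPS difference, where 4.97% of all genes were DEGs, 2.08% higher and 2.89% lower, fewer of these genes changed. Deptor was higher under the LPS+ headings (log2 fold change 1.05, edgeR adjusted p = 0.000669), as Sesn1 was, but it lost the call in 2 of 12 fits that left out 1 library. Of 18 ATF4 targets 4 were lower, Nupr1 (-3.07, edgeR adjusted p = 6.18e-06), Ddit4, an mTORC1 inhibitor (-2.56, edgeR adjusted p = 0.00428), Ddit3 (-1.21, edgeR adjusted p = 0.00169) and Trib3 (-1.13, edgeR adjusted p = 0.00373), and Ddit4 and Trib3 each lost the call in 5 of 12 such fits, with edgeR adjusted p up to 0.0164 and 0.0144. Of 15 FoxO targets 3 were lower, among them Irs2, an adaptor of the insulin receptor (-2.39, edgeR adjusted p = 0.000141). Ddit4 stood at 2.30, 21.9, 1.24 and 1.17 CPM in the order of groups above, and Irs2 at 7.68, 21.8, 4.04 and 1.51. Both were highest where Sesn3 was highest and Sesn1 lowest.

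Markers of other cells varied in the same libraries. The summed level of 6 stromal genes such as Col1a1 was 922, 137 and 1463 CPM in the 3 LPS- tlr4f/f-lysM-cre columns, where Sesn3 had 7.73, 9.10 and 6.57 CPM and Sesn1 2.55, 2.60 and 3.98. In the 3 LPS- tlr4f/f columns it was 656, 60.6 and 9.05 CPM, with Sesn3 at 1.37, 1.91 and 1.27 and Sesn1 at 62.2, 62.8 and 71.4, and in the 6 headed LPS+ it was between 20.2 and 44.0. The summed level of 4 proliferation genes was 953 to 1085 CPM under LPS+ tlr4f/f, 455 to 601 under LPS+ tlr4f/f-lysM-cre, 107 to 607 under LPS- tlr4f/f and 88.1 to 233 under LPS- tlr4f/f-lysM-cre. The sum of 8 neutrophil genes reached 192 CPM in 1 library headed LPS- tlr4f/f-lysM-cre and was at most 27.8 in the others. The sum of 7 immediate-early and stress genes was between 179 and 484 CPM, over genes that went both ways. Hspa1a, Hspa1b, Dnajb1 and Egr1 were highest under LPS- tlr4f/f-lysM-cre, and Fos was lowest there. Jun and Fosb were lower there than in either tlr4f/f group. Hspa1a had 59.7 CPM under that heading, beside 5.40 under LPS- tlr4f/f, 6.41 under LPS+ tlr4f/f and 18.2 under LPS+ tlr4f/f-lysM-cre. Fos had 40.9 CPM there, beside 99.3, 90.0 and 86.7 in the same order. The sums of markers of erythroid cells, B cells, T cells, dendritic cells, and mast cells and basophils were at most 4.33, 1.12, 0.128, 6.32 and 0.349 CPM. The part of these cells in the sestrin levels was not tested.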

How the data were processed

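RNA from 12 libraries of mouse BMDMs was sequenced by the authors as paired reads of rRNA-depleted RNA, in libraries whose labels also name polyA RNA-seq. The deposited values are raw whole-number counts per transcript, which the authors made, per their methods and the submitters' processing notes, with Trimmomatic 0.36, HISAT2 on mm10 and HTSeq, without normalization. Transcripts of a gene share reads, so sums over transcripts count reads more than once. Of 115140 transcripts, 106335 carry RefSeq and 8805 Ensembl identifiers, and 7551 of 7596 Ensembl genes were matched to a symbol. For each of 43131 genes the transcript with the highest total was taken, which left 33577087 to 56445268 counts per library. Reads carry no molecular identifiers, and counting error at such depths weighs most on genes with few counts, such as Sesn3. Strand handling is not given in the sources used here.

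Libraries were grouped by column heading. Counts were tested with edgeR 4.0.16 (R 4.3.3) by a robust quasi-likelihood fit after filterByExpr and TMM, with p adjusted by Benjamini-Hochberg over all genes tested. A DEG differed over 2-fold with an adjusted p under 0.01, thresholds taken from the study, which used DESeq. The 4 contrasts of 2 groups used 6 libraries each, and the interaction and both averages used 12, over 15775 genes. CPM values used TMM factors over 12 libraries. The script was tested on counts drawn with 200 genes changed by 2 on the log2 scale, of which it recovered 87.5% for the average genotype difference, 86.5% for the average LPS difference, 51.5% for the interaction, 31% for the genotype without LPS, 98.5% for the genotype with LPS, 63% for LPS within tlr4f/f and 72.5% for LPS within tlr4f/f-lysM-cre.

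The members, lists and tests were chosen with earlier results of these data known, and no p is given for the sestrins. The genes named are the sestrins, Tlr4, Lyz2 and Il1b, the 5 genes most like each sestrin, the largest DEG in each direction of each list and contrast with a mean of at least 1 CPM, and regulators and well known targets whatever their result. From these, those bearing on the averages and the interaction are printed, and further DEGs of the lists are named after their values were seen. Alternatives were DESeq2 1.42.0, limma 3.58.1 (voom), other filters and scalings, an adjusted p below 0.05 at the same fold, a fit of 12 libraries, rows summed per gene, a replicate block, each library left out, and the exchange of headings. Sequences are from RefSeq on GRCm38.p6, and exons from GENCODE M21. Proteins were not used here.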

Additional observations from a re-analysis of the deposited data

Results flagged for a closer look

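Irs2 was the one gene of the lists whose interaction of genotype and LPS was a DEG (log2 scale -2.92, edgeR adjusted p = 0.00775), a tested difference between the LPS contrasts of the genotypes. Of all 15775 genes tested, 1.04% were DEGs of the interaction, and nothing about the lists is read from a single call. Irs2 lost the call in 9 of 12 fits that left out 1 library, with edgeR adjusted p between 0.00224 and 0.0293. For Sesn1, the count on the upstream transcript as a percentage of that on the downstream one moved, as headed, in opposite directions between the LPS contrasts of the genotypes. The mean was 95.5 under LPS- tlr4f/f and 98.2 under LPS+ tlr4f/f, with every LPS+ library above every LPS- one. It was 107 under LPS- tlr4f/f-lysM-cre and 99.5 under LPS+ tlr4f/f-lysM-cre, with every LPS+ library below every LPS- one. In the exchanged reading the mean was higher with LPS in both genotypes. It went from 95.5 to 107 in tlr4f/f, and from 98.2 to 99.5 in tlr4f/f-lysM-cre with overlapping libraries. The opposite directions then lie between the genotype contrasts without and with LPS. These differences were not tested, and the percentage under the heading LPS- tlr4f/f-lysM-cre rests on rows of 83 to 128 counts.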

How the results depend on the processing

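No sestrin changed the sign of its averages under any alternative but the exchange of headings. That exchange turned the average genotype difference to 1.91 for Sesn1 and -1.25 for Sesn3, and the average LPS difference to -2.79 and 1.25. It gave -4.43 for Sesn1 and 2.35 for Sesn3 in LPS within tlr4f/f, -1.16 and 0.12 in LPS within tlr4f/f-lysM-cre, 0.29 and -0.11 in the genotype without LPS, and 3.55 and -2.35 in the genotype with LPS. Leaving out 1 library gave the average genotype difference of Sesn1 between -2.92 and -2.74 and of Sesn3 between 1.16 and 1.33, the average LPS difference between 1.86 and 2.03 and between -1.31 and -1.15. For Sesn2 the averages ran from -0.57 to -0.26 and from -0.51 to -0.25. It gave the Sesn1 interaction between 3.16 and 3.51, Sesn1 in LPS within tlr4f/f-lysM-cre between 3.42 and 3.78, Sesn2 there between -0.88 and -0.38, and Sesn2 in LPS within tlr4f/f between -0.31 and 0.20. For Sesn3, LPS within tlr4f/f ran from -0.25 to 0.09, and the genotype with LPS from -0.02 to 0.26. The former was 0.09 without the second LPS- tlr4f/f library and 0.05 without the second LPS+ tlr4f/f library. Without that LPS+ library the genotype with LPS was -0.02. The Sesn2 interaction ran from -0.87 to -0.25.

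Of the other named genes, 38 were tried for the average genotype difference, 6 for the average LPS difference, and Irs2 for the interaction. Tlr4, Lyz2, Il1b and the genes most like each sestrin were not tried. All alternatives were used but the exchange of headings, which gives each gene its value from the other average. Among the genes tried, 1 of 23 DEGs of the average genotype difference lost the call under such an alternative, Keap1, also with voom (0.98) and with no filter (0.99). The call was gained under some by 4 genes, Srxn1, Gclm, Txnip and Foxo3. For the average LPS difference 3 of 6 lost it, Deptor, Ddit4 and Trib3, and the Irs2 interaction also lost it with rows summed per gene (edgeR adjusted p = 0.011). Of the genes tried, Nqo1, which was not a DEG, changed sign in the average genotype difference, to -0.38 without the first LPS- tlr4f/f-lysM-cre library. No other gene tried did so in the average it was tried for, nor did the Irs2 interaction.

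Counts of DEGs moved far more, and their cause was not tested. For LPS within tlr4f/f the count was 0, and it was 92 at an adjusted p below 0.05, 464 with DESeq2, 28 with voom, 34 with no filter, 74 in the fit of 12 libraries and 2497 with the exchange. For LPS within tlr4f/f-lysM-cre 865 DEGs became 1983 at 0.05, 2002 with DESeq2, 3161 with the exchange and 212 with the replicate block. For the genotype without LPS 2497 became 4056 at 0.05, 3992 with DESeq2, 4251 in the fit of 12 libraries and 0 with the exchange. For the genotype with LPS 3161 became 2045 in the fit of 12 libraries and 865 with the exchange. For the interaction 164 became 629 at 0.05 and 636 with DESeq2. For the averages, 3879 for genotype became 784 with the exchange, and 784 for LPS became 1568 at 0.05, 1434 with DESeq2 and 3879 with the exchange. With 1 library left out the counts ran from 0 to 184, 4 to 1178, 1038 to 1682, 3017 to 3152, 10 to 306, 3558 to 4078 and 450 to 1095, in the order of contrasts just given.

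Libraries were not treated as paired, since whether same-numbered libraries share an origin is not given in the sources used here. Of 18 correlations of same-numbered libraries, 5 were over 0.1 (highest 0.472, median 0.042). Differently numbered libraries had 3 of 36 over 0.1 (highest 0.203, median -0.032). These values are no reason against a pairing. With the replicate block the average genotype difference was -2.79 for Sesn1 and 1.24 for Sesn3, and the average LPS difference 1.92 and -1.23. Depth limits Sesn3 most, with 41 to 119 counts in 9 of the libraries.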
